A study of Mus musculus with 28 samples.

Results

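The genes described here belong to the integrated stress response and the unfolded protein response in mouse fat. The 10 members are a named list, selected on the measured CPM values of the brown fat contrast, in which Gdf15 was much lower in the knockout libraries, and they were found among the 55891 gene identifiers of the deposited tables by symbol. They fall into an Atf4 branch of 7 genes (Gdf15, Atf4, Atf5, Ddit3, Trib3, Chac1 and Asns) and a chaperone branch of 3 genes (Hspa5, Xbp1 and Herpud1). The study sequenced total RNA from 28 adipose tissue libraries of mice, comparing wild type controls with an adipose knockout of Fgf13, a fibroblast growth factor homologue that acts inside the cell. An inducible knockout was profiled in epididymal white fat (ieWAT, 3 controls and 3 knockouts) and subcutaneous white fat (isWAT, 3 controls and 2 knockouts), and a constitutive knockout in the subcutaneous depot (sWAT, 3 of each) and in brown fat (BAT, 3 controls and 2 knockouts). All mice of these 4 sets were obese after 20 weeks of high fat diet, controls included. A further set of epididymal fat (eWAT, 3 and 3) has the same 2 genotype labels, and its kind of knockout and diet are not stated for it in the sources used here. The labels call the controls WT and the others Fgf13 KO; the sources used here give no Cre driver and no age or sex. Nothing in them says that libraries are separate animals, so p-values measure only the spread between these libraries, which may be technical.

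The integrated stress response begins when a kinase phosphorylates the translation factor eIF2alpha, which slows protein synthesis in general while the mRNA of the transcription factor Atf4 is translated more. Atf4 and its relative Atf5 then switch on genes for amino acid supply and stress adaptation, and one outcome is release of Gdf15, a circulating hormone that reduces food intake through a receptor in the hindbrain. The unfolded protein response is the set of sensors in the endoplasmic reticulum (ER) that answers misfolded protein by raising chaperones such as Hspa5 (BiP), and adipocytes, which secrete much protein, use both systems. Since much of the control of Atf4, Xbp1 and eIF2alpha lies in translation, splicing or phosphorylation, mRNA levels show only part of either response.

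The promoters of 5 members are shown here, because the results below turn on these genes. They are Gdf15, the amino acid genes Chac1 and Asns, and the chaperone genes Hspa5 and Herpud1. Each run holds the 250 bases before the annotated transcription start, 5′ to 3′ on the gene's strand, from RefSeq on GRCm38.p6, with capitals marking letters that match a searched motif. The windows are chr8:70632457-70632706 on the minus strand for Gdf15 (the more upstream of 2 annotated starts), chr2:119350992-119351241 on the plus strand for Chac1, chr6:7693210-7693459 on the minus strand for Asns, chr2:34771840-34772089 on the plus strand for Hspa5 and chr8:94386179-94386428 on the plus strand for Herpud1.
Gdf15: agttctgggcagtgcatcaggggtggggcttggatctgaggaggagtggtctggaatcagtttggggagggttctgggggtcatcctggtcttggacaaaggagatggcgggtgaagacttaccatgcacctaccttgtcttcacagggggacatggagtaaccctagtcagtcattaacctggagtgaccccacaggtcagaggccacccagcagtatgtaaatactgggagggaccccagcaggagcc
Chac1: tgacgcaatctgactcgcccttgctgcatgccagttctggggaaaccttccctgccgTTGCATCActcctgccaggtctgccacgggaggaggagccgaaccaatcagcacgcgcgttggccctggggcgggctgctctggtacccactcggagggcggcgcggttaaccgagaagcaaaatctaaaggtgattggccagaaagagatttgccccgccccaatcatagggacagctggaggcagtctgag
Asns: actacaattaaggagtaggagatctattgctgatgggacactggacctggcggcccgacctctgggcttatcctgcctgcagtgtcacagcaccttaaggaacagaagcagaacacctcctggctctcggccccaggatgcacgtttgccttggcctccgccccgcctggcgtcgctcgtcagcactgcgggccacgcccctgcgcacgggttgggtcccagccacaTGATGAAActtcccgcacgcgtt
Hspa5: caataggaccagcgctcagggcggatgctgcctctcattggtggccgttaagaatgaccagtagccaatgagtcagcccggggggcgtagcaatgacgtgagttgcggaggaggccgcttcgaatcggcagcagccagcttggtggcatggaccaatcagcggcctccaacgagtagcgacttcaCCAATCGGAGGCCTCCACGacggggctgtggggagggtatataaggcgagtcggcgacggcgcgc
Herpud1: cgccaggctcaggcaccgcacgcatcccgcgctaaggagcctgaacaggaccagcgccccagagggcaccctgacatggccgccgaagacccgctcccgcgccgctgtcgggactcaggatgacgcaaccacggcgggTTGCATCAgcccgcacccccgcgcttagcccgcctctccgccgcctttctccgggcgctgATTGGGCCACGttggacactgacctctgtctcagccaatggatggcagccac
Motifs were searched on both strands in windows from 250 bases before to 50 bases after the start, which RefSeq gives for all 10 members (12 windows). The C/EBP-ATF response element, searched as TGATGNAA, through which Atf4 acts, was present in 4 of the 10 members (Trib3, Chac1, Asns and Herpud1) and in 3.97% of all 32851 windows. Its match lay on the gene's own strand in Asns and on the opposite strand in Trib3, Chac1 and Herpud1. It began at base 15 after the start in Trib3, and 23, 193 and 112 bases before the start in Asns, Chac1 and Herpud1. The ER stress response element, searched as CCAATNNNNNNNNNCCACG and known for binding Atf6, was found in Hspa5 alone among the members, 65 bases before the start, and in 0.119% of all windows. Its second form, searched as ATTGG, any base and CCACG, was found in Herpud1 alone, 52 bases before the start, and in 0.0365% of all windows. The unfolded protein response element TGACGTGG matched no member window and 0.676% of all windows. No searched motif overlapped another in the shown promoters, and the shown Gdf15 window held none of these letters.

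Whole-series facts bear on the values that follow. The 4 tables of ieWAT, isWAT, sWAT and BAT hold CPM (reads scaled to a common library total), and whole reads recovered from them sum to 13490948 to 48812592 per library. The eWAT table holds FPKM (the same per kilobase of transcript), so its depth is unknown. Fgf13 itself was lower in every knockout library than in every control of the 4 CPM tables, with mean CPM of 44.3 against 27.1 in ieWAT, 60.3 against 33.3 in isWAT, 110 against 63.2 in sWAT and 9.07 against 1.06 in BAT. In eWAT, Fgf13 was 20.4, 27.6 and 12.9 FPKM in the controls and 23.1, 17.6 and 27.0 in the libraries labelled knockout, so the groups overlapped and the eWAT label is not borne out by the Fgf13 level. Skeletal muscle markers summed to 2063 and 2601 CPM in sWAT knockout libraries 2 and 3 against 16.8 to 29.2 in the sWAT controls, and to between 0.984 and 5935 CPM over the BAT libraries. Brown adipocyte markers summed to 7514 to 10397 CPM in BAT and to at most 87.5 CPM in the 3 white fat CPM tables, as the depot labels say.

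Among controls, the members differed widely in level. Compared per kilobase of annotated exon, Hspa5, the main ER chaperone, was the highest member in ieWAT (141 ± 12.4 CPM per kilobase, SD, n = 3), isWAT (117 ± 6.52) and sWAT (145 ± 2.84). In BAT, Atf5, a transcription factor of the mitochondrial stress response, reached 93.8 ± 3.63 and Hspa5 81.5 ± 11.2 CPM per kilobase (SD, n = 3). Gdf15 was the lowest member per kilobase in the 3 white fat CPM tables, at 3.59 ± 0.0166 in ieWAT, 0.734 ± 0.194 in isWAT and 0.553 ± 0.150 in sWAT. The depot tables were normalised separately, so levels set across them are only a description.

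Gdf15, the hormone of this set, had its highest control level in BAT (10.01 ± 2.63 CPM, SD, n = 3), followed by ieWAT (6.65 ± 0.0307), isWAT (1.36 ± 0.359) and sWAT (1.02 ± 0.279). The control ranges of BAT, ieWAT and isWAT lay apart from each other, and those of isWAT and sWAT overlapped. In BAT the controls held 7.34, 12.6 and 10.1 CPM and the knockouts 1.29 and 1.07 CPM, from 156, 201 and 192 reads against 21 and 16. Both BAT knockouts thus lay below every BAT control, with a log2 difference of -2.31 on the log2(CPM + 1) scale (SE 0.24). Because this contrast chose the member list, its value is given without a test. In eWAT the controls held 7.30, 10.95 and 26.4 FPKM and the libraries labelled knockout 4.91, 3.87 and 3.77 FPKM. All 3 labelled knockouts lay below all 3 controls there, by 1.44 on the log2 scale (log2 change -1.44, SE 0.43, limma adjusted p = 0.0751), which did not pass the threshold of 0.05. In isWAT the order was opposite, with 1.00, 1.35 and 1.72 CPM in the controls and 2.02 and 2.19 CPM in the knockouts, from 39 to 91 reads. That difference did not pass either (log2 change 0.40, SE 0.18, limma adjusted p = 0.397). In ieWAT the controls held 6.63, 6.69 and 6.64 CPM and the knockouts 6.66, 5.56 and 7.45 CPM, so the groups overlapped (log2 change -0.03, SE 0.15). In sWAT Gdf15 did not pass the filter on low values: it was 0.942, 1.33 and 0.796 CPM in the controls and 0.379, 0.977 and 0.440 CPM in the knockouts, from 7 to 20 reads per library, and the groups overlapped.

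**Figure D1:**
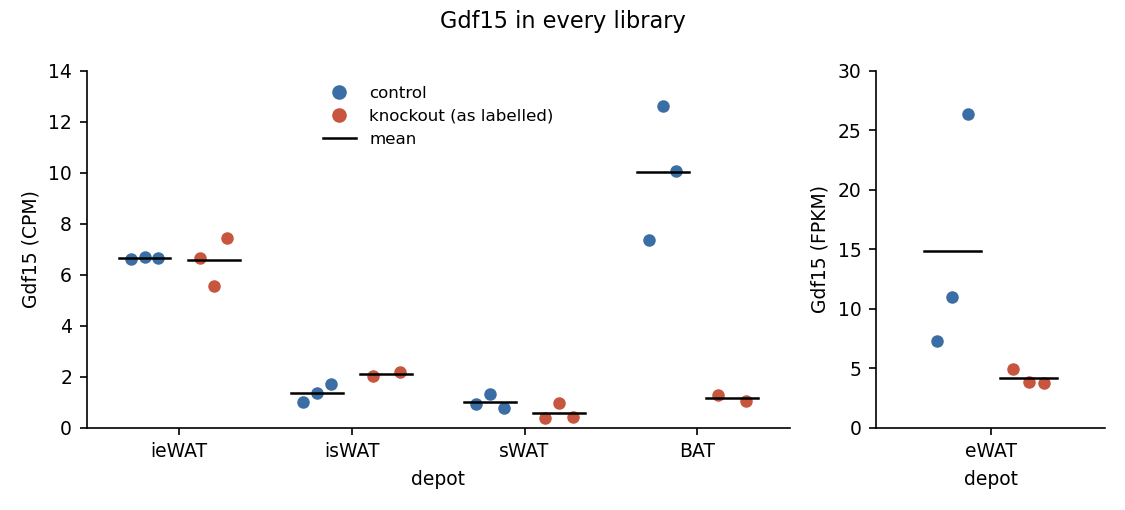
Gdf15 in every library, in CPM in the left panel (ieWAT, isWAT, sWAT and BAT) and in FPKM in the right panel (eWAT); points are libraries and black lines group means. The BAT knockouts at 1.29 and 1.07 CPM lie below the BAT controls at 7.34 to 12.6, whereas the ieWAT groups overlap.

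In BAT, which is described without tests, 8 of the 10 members were lower in both knockouts than in all 3 controls on the CPM scale, and none was higher. No test is given, and the fit called 0.00755% of BAT genes in all. Over all 13253 genes measured in BAT, 38.1% were lower and 6.37% higher in the same sense, and the median gene stood at -0.18 on the log2 scale. After scaling by trimmed mean of M-values (TMM), which divides out such a library-wide shift, the median gene stood at 0.01, and 4 members (Gdf15, Trib3, Hspa5 and Herpud1) were lower without overlap against 19.1% of all genes lower and 18.1% higher. Trib3, a pseudokinase induced by Atf4 and Ddit3, was 10.4, 11.2 and 11.6 CPM in the controls and 7.45 and 5.02 CPM in the knockouts. Its log2 difference of -0.76 (SE 0.18) became -0.57 with TMM scaling. Hspa5 was 334, 304 and 396 CPM in the controls and 252 and 238 CPM in the knockouts, a log2 difference of -0.48 (SE 0.14) that became -0.27 with TMM scaling. Herpud1, which helps deliver misfolded protein for degradation, was 81.0, 67.6 and 81.0 CPM against 61.6 and 49.5 CPM, a log2 difference of -0.46 (SE 0.14) that became -0.25 with TMM scaling. Xbp1, the mRNA that the sensor Ern1 splices, was 70.3, 49.6 and 82.8 CPM in the controls and 45.5 and 48.6 CPM in the knockouts, with control 2 close to the knockouts, and its groups overlapped after TMM scaling. Ddit3 (CHOP), a transcription factor linked to stress-induced cell death, was 34.8, 30.9 and 35.1 CPM against 29.7 and 25.4 CPM, and its log2 difference of -0.28 became -0.08 with TMM scaling. Atf4 was 128, 132 and 119 CPM in the controls and 113 and 119 CPM in the knockouts, a log2 difference of -0.12 that turned to 0.08 with TMM scaling. Atf5 was 181, 185 and 195 CPM against 170 and 154 CPM, and its log2 difference of -0.20 went to 0.00 with TMM scaling. Asns, the asparagine synthetase, overlapped at 42.5 to 47.7 CPM in the controls and 39.5 and 47.0 CPM in the knockouts, and its log2 difference of -0.07 turned to 0.13 with TMM scaling. Chac1, which degrades glutathione, was near the detection limit at 1.22, 1.82 and 2.10 CPM in the controls and 0.246 and 1.61 CPM in the knockouts. The lower Gdf15 level in BAT therefore stood beside an Atf4 mRNA level whose direction depended on the scaling.

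Macrophage markers moved with these BAT values. All 10 of 10 macrophage markers were lower in both BAT knockouts than in every control, their sum being 272 to 1230 CPM in the controls and 115 to 118 CPM in the knockouts, and none was at 0 in every library. The BAT control with the highest Gdf15 level (12.6 CPM, control 2) had the lowest marker sum among the controls (272 CPM), and control 3 with the highest sum (1230 CPM) had 10.1 CPM of Gdf15. Fibroblast and progenitor markers were also lower in sum, at 616 to 2187 CPM in the controls and 349 to 527 CPM in the knockouts, with 5 of 8 lower without overlap. So were plasma and B cell markers (104 to 311 CPM against 62.0 to 76.0, 5 of 10 lower), T cell markers (2.07 to 9.49 CPM against 0.869 to 1.54, 2 of 6) and endothelial markers (742 to 882 CPM against 689 to 694, 4 of 6). On the same unscaled CPM, 38.1% of all BAT genes were lower without overlap. The marker sums were not TMM scaled, so they include the library-wide shift. Brown adipocyte markers overlapped, at 7514 to 10397 CPM in the controls and 7863 to 9778 CPM in the knockouts. The part of these markers in the member values was not tested, and in bulk tissue fewer cells of a type cannot be told apart from less RNA per cell.

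**Figure D2:**
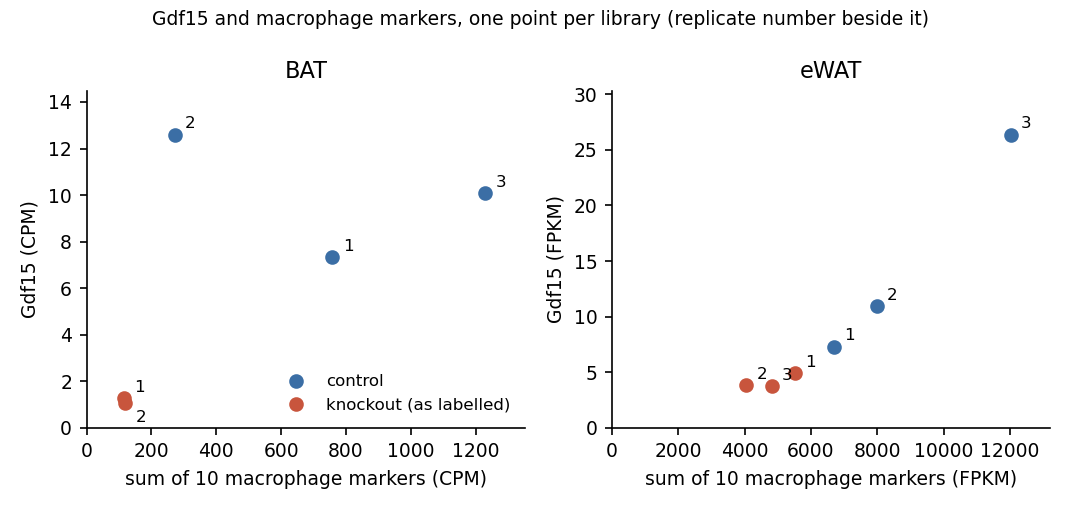
Gdf15 (vertical axis) against the summed level of 10 macrophage markers (horizontal axis), one point per library with its replicate number, in CPM for BAT and FPKM for eWAT. In eWAT the control at 26.4 FPKM of Gdf15 also has the highest marker sum, 12019; in BAT the control with the highest Gdf15, 12.6 CPM, has a marker sum of 272.

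In eWAT none of the 10 members passed the limma threshold in a table where 14.9% of 13736 genes did (10.2% higher and 4.7% lower), and 4 members had an unadjusted p under 0.05, as 33.9% of all genes did. Within the Atf4 branch, Gdf15 was lower in the libraries labelled knockout while the other 6 genes had log2 changes above 0. Ddit3 was 26.5, 27.5 and 34.4 FPKM in the controls and 37.2, 37.5 and 44.9 FPKM in the labelled knockouts, without overlap (log2 change 0.43, SE 0.13, limma adjusted p = 0.0657). Asns was 11.8, 12.2 and 12.5 FPKM against 13.6, 17.8 and 17.5 FPKM, also without overlap (log2 change 0.38, SE 0.11, limma adjusted p = 0.0659). Chac1 was 2.69, 2.55 and 2.09 FPKM against 2.86, 5.05 and 3.20 FPKM, with labelled knockout 2 the highest and no overlap (log2 change 0.42, SE 0.19, limma adjusted p = 0.162). Atf5 was 48.0, 58.2 and 61.4 FPKM against 77.0, 59.9 and 76.6 FPKM, where labelled knockout 2 lay within the control range. Atf4 overlapped at 73.1 to 94.0 FPKM in the controls and 76.0 to 88.4 FPKM in the labelled knockouts (log2 change 0.03, SE 0.12). Trib3 overlapped at 3.02 to 4.91 FPKM against 4.80 to 4.88 FPKM. In the chaperone branch, Hspa5 was 338 to 395 FPKM in the controls and 324 to 407 FPKM in the labelled knockouts, so the groups overlapped (log2 change -0.05, SE 0.12). Xbp1 was 107, 99.9 and 107 FPKM against 108, 120 and 115 FPKM, without overlap but with a log2 change of 0.12 (SE 0.08, limma adjusted p = 0.333). Herpud1 overlapped, since control 1 held 71.8 FPKM and the other controls 39.0 and 36.6 FPKM against 31.7 to 43.1 FPKM in the labelled knockouts. The 4 members higher and the 1 member lower without overlap compare with 21.6% and 19.6% of all eWAT genes, or 22% and 19% with TMM scaling, where the same 5 members stood apart.

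Single libraries decided which eWAT members passed. Without control 3, the library with the highest Gdf15 level, Gdf15 passed with a smaller log2 change of -0.95 (limma adjusted p = 0.0424) and Ddit3 passed with 0.54 (adjusted p = 0.04). Without control 1, Gdf15 passed with a log2 change of -1.81 (limma adjusted p = 0.0354), and without labelled knockout 1, Asns passed with 0.50 (adjusted p = 0.0379). Many other genes passed in these fits too. Of 14039 genes, 853 were higher and 286 lower without control 3. Without control 1 there were 1165 and 654 of 13983, and without labelled knockout 1, 815 and 297 of 14046. A further deposited table gives TPM values for the same 6 eWAT samples, and there Gdf15 was 1.03, 0.127 and 1.07 TPM in the controls and 1.39, 2.52 and 1.12 TPM in the labelled knockouts, the opposite order. Its log2 change there was 0.64, beside a median of 0.65 for all genes of that table, so it moved as the median gene did. Libraries of that table correlated across genes at r = 0.689 to 0.964 with each other, against 0.979 to 0.994 in the FPKM table. The eWAT direction of Gdf15 therefore rests on the FPKM table. Macrophage markers moved with it: 8 of 10 were lower without overlap, their sum being 6699 to 12019 FPKM in the controls and 4038 to 5525 FPKM in the labelled knockouts, and none was at 0 in every library. Adipocyte markers were higher in 7 of 7 cases, with sums of 7108 to 9148 FPKM in the controls and 16940 to 21447 FPKM in the labelled knockouts. Endothelial markers were higher in sum too (114 to 156 FPKM against 194 to 277, 5 of 6 without overlap), and the mitochondrial share of the table was 5.55% to 5.98% in the controls and 7.09% to 11.4% in the labelled knockouts. The part of these measures in the eWAT values was not tested.

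Some genes of the wider pathway passed the threshold in eWAT, in a share near that of all genes. Of 110 measured genes in the fixed pathway lists, 12 rose (10.9%) and 2 fell (1.82%) by limma, where 10.2% of all genes rose and 4.7% fell. The 6 with the smallest p, and Nupr1, are described singly. Phgdh, the first enzyme of serine synthesis, was 64.2, 50.1 and 41.1 FPKM in the controls and 160, 120 and 155 FPKM in the labelled knockouts (log2 change 1.48, SE 0.18, limma adjusted p = 0.0122). Psat1, the next enzyme, was 33.1, 37.1 and 30.8 FPKM against 69.4, 55.6 and 72.3 FPKM (log2 change 0.94, SE 0.12, limma adjusted p = 0.0122). In the TPM table of the same samples Psat1 had the opposite direction, at 30.7, 278 and 19.0 TPM in the controls against 13.9, 55.5 and 74.9 TPM (log2 change -0.49), and none of the pathway genes passed there. Psph, which completes the pathway, rose from 6.13 ± 1.07 to 10.6 ± 0.729 FPKM (SD, n = 3 each, limma adjusted p = 0.0186). Slc1a5, a glutamine transporter, rose from 198 ± 37.7 to 478 ± 85.0 FPKM, and Cth, which makes cysteine, from 2.92 ± 0.454 to 6.80 ± 0.970 FPKM (SD, n = 3 each). Stc2, a secreted stress-induced glycoprotein, rose from 1.31 ± 0.365 to 3.86 ± 0.628 FPKM, and Nupr1, a stress-induced chromatin protein, from 76.0 ± 8.32 to 116 ± 15.4 FPKM (SD, n = 3 each). All 3 labelled knockouts were above all 3 controls for each of these 7 genes. The lists did not move as wholes: 3 of 9 genes of serine, proline and one-carbon synthesis rose with a list median of -0.09, and 5 of 15 other Atf4 targets and partners rose with a median of 0.16, beside -0.02 for all genes. In the other lists 1 of 8 eIF2 and eIF2B subunits, 1 of 7 amino acid transporters and 2 of 11 genes of the mitochondrial stress relay rose, and 1 of 8 ER stress sensors and 1 of 19 ER chaperones and folding enzymes fell. The 2 genes that fell were Mbtps2, a protease that activates Atf6, and Ero1lb, an ER oxidase, both named after their values were seen. Fgf21, another stress-responsive hormone, was 0.748, 0.838 and 0.761 FPKM against 2.22, 1.17 and 1.99 FPKM and did not pass (log2 change 0.63, SE 0.17, limma adjusted p = 0.0541). Without labelled knockout 3 none of the 110 genes passed. Leaving out control 2, control 3 or labelled knockout 2 left 4, 9 and 7 genes, and the fit with a replicate block 0. Calls over all genes fell in the same fits. Without labelled knockout 3, 7 of 14031 genes were higher and 5 lower. There were 436 and 125 of 14044 without control 2, and 853 and 286 of 14039 without control 3. Without labelled knockout 2 there were 709 and 198 of 14009, and with the replicate block 0. The sums of adipocyte markers, given above, were also higher in the labelled knockouts.

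**Figure D3:**
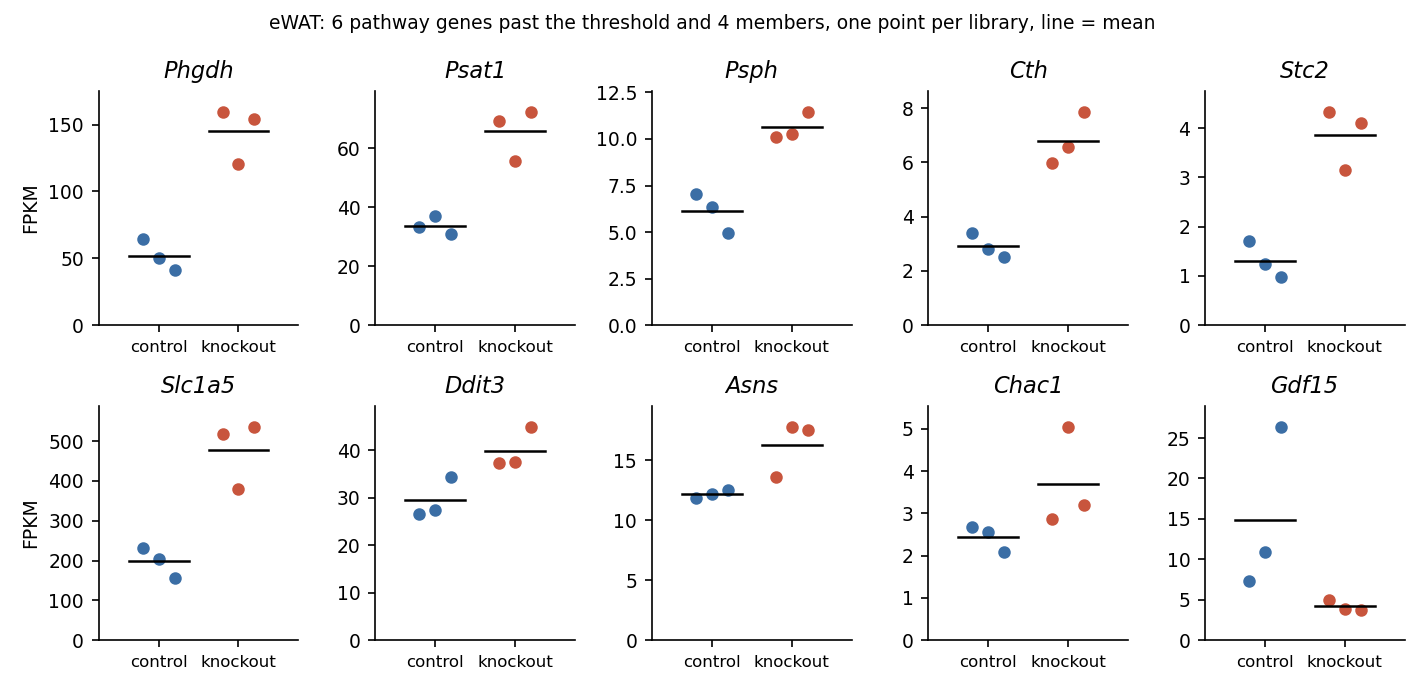
FPKM (vertical axes, each from 0) of 6 pathway genes past the threshold and 4 members in eWAT, one point per library and a line at the group mean. Phgdh, Psat1, Psph, Cth, Stc2 and Slc1a5 lie higher in all 3 labelled knockouts, Gdf15 lower, and Ddit3, Asns and Chac1 higher by less.

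In isWAT none of the 10 members passed, as 0.00701% of 14258 genes did, and 1 member had an unadjusted p under 0.05, as 13.1% of all genes did. Atf4 was 134, 137 and 141 CPM in the controls and 108 and 127 CPM in the knockouts, below every control (log2 change -0.23, SE 0.09, limma adjusted p = 0.369). With Gdf15 higher and Atf4 lower, 1 member lay on each side without overlap, where 12.2% of all isWAT genes were higher and 19.4% lower (16.6% and 14.9% with TMM scaling, where the same 2 stood apart). The other Atf4 targets overlapped: Ddit3 was 30.6 to 34.7 CPM in the controls and 31.4 and 35.9 in the knockouts, and Asns was 48.2 to 52.5 CPM against 45.5 and 55.1. Trib3 overlapped at 13.2 to 15.9 CPM against 12.8 and 15.9 CPM, and Chac1 at 9.94 to 12.5 CPM against 7.28 and 14.8 CPM. The 2 knockouts differed from each other, since knockout 1 was the higher in Ddit3, Trib3, Chac1 and Asns and the lower in Hspa5 and Xbp1. Hspa5 was 471, 488 and 525 CPM in the controls and 454 and 566 CPM in the knockouts (log2 change 0.04, SE 0.11). Herpud1 overlapped at 78.7 to 93.2 CPM against 81.9 and 75.1 CPM. Among the pathway lists, 0 of 110 genes passed, with 3 higher (2.73%) and 11 lower (10%) at an unadjusted p under 0.05 by limma, where 3.98% and 9.13% of all isWAT genes were. The 4 with the smallest p were Creb3l1, an ER-bound transcription factor (30.1 against 21.3 mean CPM), the amino acid transporters Slc38a2 (110 against 80.0) and Slc7a1 (26.5 against 19.1), and Ddit4, an inhibitor of mTORC1 (123 against 90.9), with limma adjusted p of 0.274 for Creb3l1 and above for the others. All 7 measured amino acid transporters had log2 changes below 0, with a median of -0.31 beside -0.03 for all genes, and 4 of them did not overlap. The ER chaperones and folding enzymes leaned the other way, with 15 of 19 log2 changes above 0 and a median of 0.11. Endothelial markers were lower in sum (1810 to 1994 CPM in the controls against 1572 to 1641) and adipocyte markers higher (22963 to 24210 against 25829 to 26001), and their part in the isWAT values was not tested.

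In sWAT none of the 9 members that passed the filter on low values was called, as 0.0217% of 13816 genes were, and 1 had an unadjusted p under 0.05, as 9.66% of all genes did. The members that stood apart were 2 of the chaperone branch, both lower, where 12.3% of all sWAT genes were lower without overlap and 3.8% higher. Herpud1 was 81.2, 72.6 and 76.6 CPM in the controls and 61.7, 67.9 and 65.0 CPM in the knockouts (log2 change -0.24, SE 0.07, limma adjusted p = 0.447). Hspa5 was 612, 627 and 603 CPM in the controls and 550, 573 and 553 CPM in the knockouts (log2 change -0.14, SE 0.07, limma adjusted p = 0.568). Knockout 1, whose muscle marker sum was 21.3 CPM, held the lowest value of each gene. With TMM scaling both genes were again lower without overlap, at log2 changes of -0.20 for Herpud1 and -0.09 for Hspa5, against 7.89% of all genes lower and 6.32% higher. Xbp1 overlapped at 181 to 203 CPM in the controls and 180 to 203 CPM in the knockouts. In the Atf4 branch, Atf4 was 125 to 133 CPM in the controls and 117 to 145 CPM in the knockouts, and Ddit3 was 29.6 to 33.9 CPM against 27.9 to 35.8 CPM. Trib3 stayed between 9.79 and 11.8 CPM in all 6 libraries. Chac1 was 6.75 to 8.10 CPM in the controls and 5.25, 11.03 and 5.60 CPM in the knockouts, the highest value being knockout 2, and Asns was 43.6 to 50.9 CPM against 42.1 to 59.8 CPM. Of the 110 measured pathway genes 0 passed, with 0 higher and 9 lower (8.18%) at an unadjusted p under 0.05 by limma, where 1.93% and 7.72% of all sWAT genes were. The ER chaperones and folding enzymes had 18 of 19 log2 changes below 0 with a median of -0.15, beside -0.05 for all genes, and 8 of the 19 were lower without overlap, or 5 with TMM scaling. Among them Calr, a lectin chaperone, had means of 568 against 472 CPM and Pdia6, a disulfide isomerase, 221 against 190 CPM, with limma adjusted p of 0.453 and 0.46. Sesn2, a stress-induced inhibitor of mTORC1, had 70.6 against 53.3 CPM and Shmt2, a mitochondrial serine enzyme, 28.6 against 24.1 CPM. Endothelial markers were lower in sum, at 1184 to 1194 CPM in the controls and 887 to 1139 CPM in the knockouts, with 4 of 6 lower without overlap. Plasma and B cell marker sums overlapped (1303 to 1397 CPM against 1246 to 1563), although their median log2 change was -1.47, and the mitochondrial share of reads was 5.49% to 5.63% in the controls against 5.77%, 8.02% and 8.15% in the knockouts. The part of these measures in the sWAT values was not tested.

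**Figure D4:**
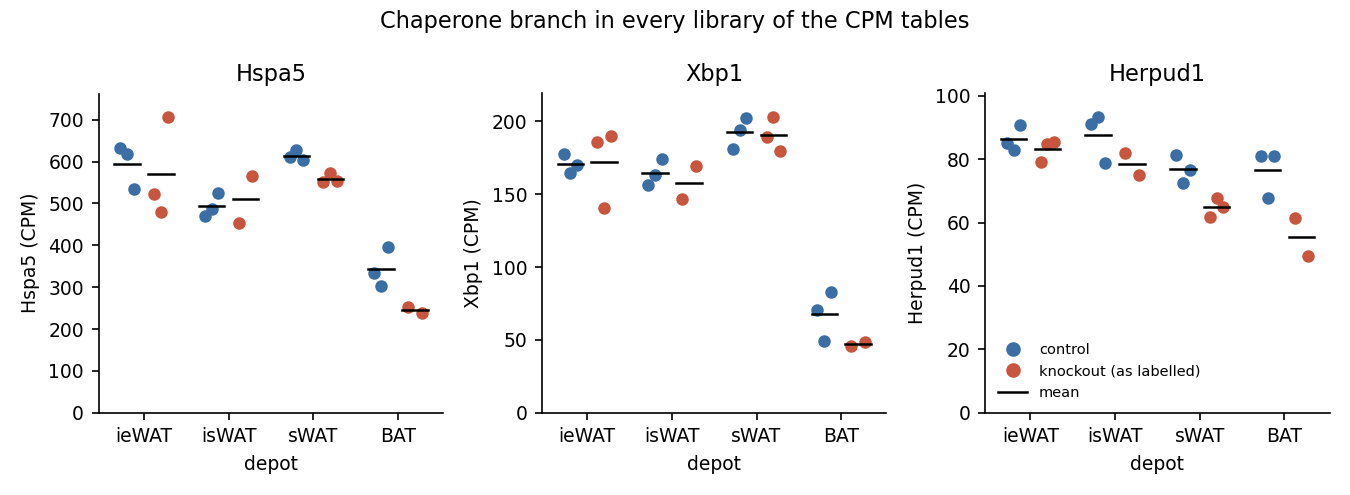
CPM of Hspa5, Xbp1 and Herpud1 (vertical axes, each from 0) in every library of the 4 CPM tables by depot, with a line at each group mean. Hspa5 and Herpud1 are lower without overlap in sWAT and BAT, and the ieWAT groups overlap for all 3 genes.

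In ieWAT no member was called, no gene of 14749 was (0%), and no member had an unadjusted p under 0.05, as 2.62% of all genes did. All 10 members overlapped, where 1.68% of all ieWAT genes were lower and 3.43% higher without overlap (2.12% and 3.09% with TMM scaling), with log2 changes between -0.08 for Hspa5 and 0.05 for Ddit3. Hspa5 was 631, 618 and 534 CPM in the controls and 523, 479 and 706 CPM in the knockouts, so the knockouts held both the lowest and the highest value. Chac1 was 7.86, 8.34 and 8.73 CPM in the controls and 9.32, 14.1 and 4.10 CPM in the knockouts, with the order reversed: knockout 2 was highest and knockout 3 lowest. Trib3 went the same way, at 9.72, 11.5 and 12.4 CPM against 13.9, 15.1 and 7.15 CPM, as did Asns at 33.7, 31.6 and 45.5 CPM against 39.5, 46.1 and 28.4 CPM. Knockout 3 also had the highest sum of macrophage markers (9610 CPM against 4166 to 7695 in the other libraries) and the lowest sum of adipocyte markers (11815 CPM), and knockout 2 the lowest macrophage sum (4166 CPM) and the highest adipocyte sum (19303 CPM). The remaining members stayed within or around the control range: Atf4 was 117 to 126 CPM in the controls and 103 to 156 CPM in the knockouts, Atf5 95.2 to 128 against 92.1 to 132, Xbp1 165 to 178 against 141 to 190, and Herpud1 83.0 to 90.6 against 79.0 to 85.3. Of 112 measured pathway genes 0 passed by limma, and 1 higher and 1 lower had an unadjusted p under 0.05. Derl3, an ER degradation factor abundant in secretory cells, was 2.70, 2.38 and 2.96 CPM in the controls and 6.23, 4.29 and 6.58 CPM in the knockouts, without overlap. Plasma and B cell markers were higher in the same libraries, summing to 1420 to 3435 CPM in the controls and 4762 to 8316 CPM in the knockouts, with 4 of 10 higher without overlap and none at 0 in every library; their part in the Derl3 value was not tested. Jdp2, a partner of Atf3, had means of 28.4 against 21.0 CPM, without overlap on unscaled CPM but with overlap after TMM scaling. Creb3l1 had means of 32.3 against 25.5 CPM, and its groups overlapped. The groups of Ppp1r15a, which directs removal of the eIF2alpha phosphate, overlapped too, with means of 21.8 against 26.2 CPM.

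Set side by side, the branches had different medians in BAT and eWAT. The Atf4 branch had a median log2 change of 0.03 in ieWAT, -0.00 in isWAT, 0.04 in sWAT (6 genes), -0.28 in BAT and 0.34 in eWAT, where the medians of all genes were 0.02, -0.03, -0.05, -0.18 and -0.02. The chaperone branch had -0.05, -0.06, -0.14, -0.48 and -0.05 in the same order. With TMM scaling the BAT medians became -0.08 for the Atf4 branch and -0.27 for the chaperone branch. Outside BAT, whose Gdf15 value the choice of members used, Gdf15 was opposite in sign to the other 6 genes of its branch in eWAT and the only member higher without overlap in isWAT. The difference between depots was not tested, because the tables were normalised separately.

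**Figure D5:**
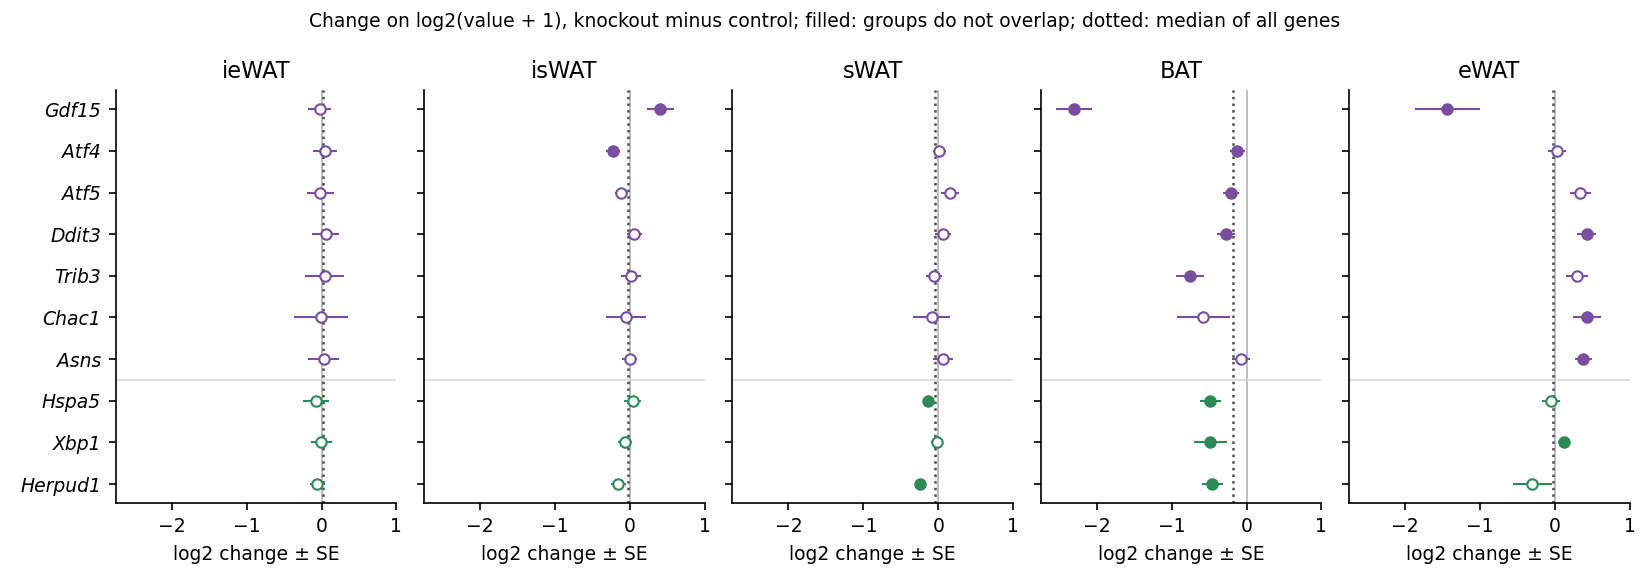
Log2 changes with SE bars (horizontal axes, knockout minus control on log2(value + 1)) of the 10 members in each depot, the Atf4 branch above and the chaperone branch below the line; filled points mark groups without overlap and dotted lines the median of all genes. Gdf15 stands at -2.31 in BAT and -1.44 in eWAT, with the other members between -0.76 and 0.43.

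BAT also had lower values across much of the wider ER protein folding list, given here without a test. The ER chaperones and folding enzymes had log2 changes below 0 for 19 of 19 genes in BAT, with a median of -0.48 that became -0.27 with TMM scaling, and 17 of the 19 were lower without overlap against 38.1% of all genes, or 11 of the 19 against 19.1% with TMM scaling. On unscaled CPM, the macrophage, fibroblast, plasma and B cell, T cell and endothelial marker sums given above were lower in the same libraries. The part of these markers in the ER values was not tested. Pdia3, Creld2, Creb3l2 and Wars are named because they had the smallest p of the BAT pathway genes, so their separation follows from that choice. Pdia3, a disulfide isomerase, was 164, 136 and 191 CPM in the controls and 95.2 and 96.6 CPM in the knockouts, and Creld2, an ER stress-inducible isomerase, was 13.6, 11.9 and 14.6 CPM against 7.94 and 7.56 CPM. Creb3l2, an ER-bound transcription factor of secretory cells, was 25.9, 23.8 and 31.0 CPM against 16.0 and 17.1 CPM, and Wars, the tryptophan tRNA synthetase, was 66.6, 62.0 and 69.8 CPM against 46.2 and 46.6 CPM. Sdf2l1, an ER stress-inducible cofactor of Hspa5, was 9.41, 5.08 and 11.01 CPM against 2.65 and 1.94 CPM. Dnajb9, of the same chaperone list, overlapped at 23.0, 30.9 and 29.4 CPM against 24.4 and 26.5 CPM. Its log2 difference of -0.11 turned to 0.09 with TMM scaling. The mitochondrial stress relay and proteases, which can feed into the same eIF2alpha pathway, had a median of 0.03 in BAT, becoming 0.23 with TMM scaling. The serine synthesis genes Phgdh and Psat1 were lower in both BAT knockouts than in every BAT control, whereas they rose in eWAT: Phgdh was 81.9, 42.6 and 101 CPM in the BAT controls and 23.9 and 39.5 CPM in the knockouts, and Psat1 19.2, 10.5 and 37.1 CPM against 3.26 and 9.36 CPM. Phgdh had means of 248 against 235 CPM in ieWAT and 293 against 297 CPM in isWAT, and in sWAT it was 270.2, 284 and 256 CPM against 456, 264 and 389 CPM, where knockout 2 lay within the control range. The sensor kinases Eif2ak3 (PERK) and Eif2ak4 (GCN2) and the sensors Ern1 and Atf6 were not called in any depot that was tested; in eWAT Ern1 was 6.78 ± 0.361 FPKM in the controls and 5.02 ± 0.616 FPKM in the labelled knockouts (SD, n = 3 each, limma adjusted p = 0.0554). Atf3, an early stress factor, had means of 17.7 against 27.5 CPM in isWAT, 35.5 against 19.7 CPM in sWAT and 170 against 99.9 FPKM in eWAT, none of them past the threshold.

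Across libraries, several Atf4 branch genes varied opposite to Hspa5 when the white fat depots were pooled. Within the Atf4 branch, r ranged from -0.209 (Atf4 and Chac1) to 0.813 over 22 libraries, with 20 of 21 pairs above 0 and a median of 0.296, and 13 of 21 above 0 over the 17 white fat libraries. These correlations were taken over log2(CPM + 1) after removing each depot's mean, over 22 libraries or the 17 that are not BAT, and they describe libraries that share depot tables and, within a depot, differences in cell content, so no p is given. The 22 include the BAT contrast whose Gdf15 value chose the list, so r over 22 libraries is not independent of that choice. Atf5 and Ddit3 had Pearson r = 0.81 and Spearman rho = 0.78 over 22 libraries, and r = 0.74 without the 2 libraries farthest in Atf5. Over the 17 white fat libraries, Hspa5 had r = -0.81 with Trib3 (rho = -0.75), r = -0.76 with Asns (rho = -0.75) and r = -0.70 with Chac1 and with Atf5. Without the 2 libraries farthest in the Atf4 branch gene, these were -0.58 for Trib3, -0.70 for Asns, -0.39 for Chac1 and -0.53 for Atf5. With BAT included they were 0.08 for Trib3, -0.43 for Asns, -0.18 for Chac1 and -0.21 for Atf5, so the opposition was weaker there. Over the 17, Ddit3 had r = -0.60 with Hspa5, and Atf4 itself 0.09. No r was taken within a single depot. In sWAT, knockout 1 had the lowest Hspa5 (550 CPM) and the lowest Chac1 (5.25 CPM), but the highest Asns (59.8 CPM) and Atf5 (173 CPM). Gdf15 went with Hspa5 instead, at r = 0.70 (rho = 0.68) over 22 libraries and 0.54 over 17. Over the 17, Gdf15 had r below 0 with every other Atf4 branch gene, from -0.55 with Atf5 to -0.07 with Chac1. Hspa5 and Xbp1 had r = 0.80 over 22 libraries and 0.64 over 17, or 0.30 over the 17 without the 2 libraries farthest in Hspa5. The other chaperone pairs did not hold without BAT. Hspa5 and Herpud1 had r = 0.55 over 22 libraries and 0.04 over 17, and Xbp1 and Herpud1 0.52 and -0.13.

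The genes most like Gdf15 over the 22 libraries, among 12574 genes measured in all 4 CPM tables, were 2810004N23Rik (Pearson r = 0.92), Tmem237 (0.88), Nek6 (0.87), an unnamed gene model (0.86) and Ext1 (0.85). Without BAT, whose contrast chose the list, these values were 0.60, 0.44, 0.75, 0.14 and 0.54, the lowest for the unnamed gene model and the highest for Nek6. The genes most like Hspa5 were Cers6 (0.96), Cyfip1 (0.96), Vwa5a (0.96), Stt3a (0.95) and Hsp90b1 (0.95), and without BAT they kept values of 0.90 to 0.97. Hsp90b1 is the ER member of the Hsp90 family and Stt3a a catalytic subunit of the ER oligosaccharyltransferase.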

How the data were processed

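RNA was extracted with a Qiagen kit and sequenced on a HiSeq2000, per the labels' protocols. Salmon, FastQC, MultiQC and DESeq2 1.38.3 are listed in the submitters' processing notes, without roles; the aligner, the build, the annotation and the treatment of reads shared between gene copies were not given in the sources used here. The authors deposited 4 tables named for FPKM whose columns all share the total that CPM values have, so their values were read as CPM, and whole reads were recovered within a tolerance of 0.01. The deposited eWAT table holds FPKM and a further deposited table of the same samples TPM, used as an added alternative. Symbols came from GENCODE M21 for 92.01% of identifiers (96.04% in ieWAT). A second identifier named Ddit3 was at 0 and was left out.

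The fit within each depot kept genes reaching 1 CPM or FPKM in a number of libraries equal to the smaller group's size, and was made by limma 3.58.1 (R 4.3.3) on log2(value + 1), with trend and robust variance, two-sided, Benjamini-Hochberg adjustment over all genes and a threshold of 0.05; a log2 change on this scale understates low genes. Each BAT value is a description. Alternatives were other pseudocounts (0.5 and 0.1), filters, scalings, a plain eBayes fit, a replicate block, leaving out each library, and edgeR 4.0.16 and DESeq2 1.42.0 on recovered reads. The fit was tested on simulated data holding 200 genes with 2-fold changes. Of these limma recovered 57 in BAT, 106 in ieWAT, 162 in sWAT and 171 in isWAT. A gene not called in BAT or ieWAT could therefore still differ 2-fold. In eWAT, simulated with the same spread for every gene, limma recovered 200. Exon lengths per gene came from GENCODE M21. Named pathway genes were a fixed set, the 6 with the smallest p among those past the threshold in a depot, or else the 4 with the smallest p as values. Likeness used Pearson r over the CPM libraries. Members, lists and rules were chosen with earlier results of these data known, and promoter sequences come from RefSeq on GRCm38.p6.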

Additional observations from a re-analysis of the deposited data

Results flagged for a closer look

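Several members lay on opposite sides in different depots, every knockout library of one depot below its controls and every one of another above them. Such separation was common over all genes: 38.1% were lower in BAT and 19.6% in eWAT, and 21.6% were higher in eWAT and 12.2% in isWAT. How many genes lay on opposite sides in 2 depots was not counted. Gdf15 had log2 changes of -2.31 in BAT and -1.44 in eWAT, both lower, and 0.40 in isWAT, higher. Ddit3 had -0.28 in BAT and 0.43 in eWAT. Xbp1 had -0.48 in BAT and 0.12 in eWAT. The differences between depots were not tested, since the tables were normalised separately and the BAT contrast was used to choose the list. With TMM scaling the BAT groups of Ddit3 and Xbp1 overlapped, and the eWAT libraries labelled knockout did not have lower Fgf13.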

How the results depend on the processing

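Over 754 values (each member in each depot under each alternative), 684 moved by less than 1 SD without passing the threshold, 59 moved by more without passing, and 11 passed. The tested depots' calls of members depended on single eWAT libraries only, with 0 to 2 members past the threshold when each library was left out. Over all eWAT genes, those fits called 7 to 1165 higher and 5 to 654 lower. Of the 11 values that passed, 7 were in BAT. The BAT contrast chose the list, so these 7 are no support for it and are not described singly. Over all BAT genes, 0.0295% passed with no filter on low values, 5.97% with DESeq2 and 16.8% without control 2. Pathway genes past the threshold numbered 1 in isWAT with DESeq2, 0 to 2 in sWAT when leaving out a library (2 without knockout 2), and in BAT 12 with DESeq2 and 0 to 31 when leaving out a library (31 without control 2). In eWAT, where 14 passed, 5 did with no filter on low values, 0 to 13 when leaving out a library, 0 with the replicate block and 0 in the TPM table, in which the Psat1 change was reversed at -0.49. Branch medians moved with scaling, with the libraries used and with the table. With median-of-ratios, TMM, edgeR and DESeq2 in turn, the BAT Atf4 branch stood at -0.0799, -0.0762, -0.0746 and -0.0769, the BAT chaperone branch at -0.2773, -0.2734, -0.2759 and -0.2784, and the sWAT chaperone branch at -0.0879, -0.095, -0.0886 and -0.0868. The sWAT Atf4 branch stood at 0.089 with edgeR and 0.0908 with DESeq2. Leaving out each library gave -0.1302 to 0.1514 for the isWAT Atf4 branch, -0.1235 to 0.0403 for the isWAT chaperone branch and -0.0326 to 0.0996 for the sWAT Atf4 branch. In the TPM table the eWAT medians were 1.4908 and 1.3312, beside 0.65 for all genes. The lowest likeness to Gdf15 without BAT was 0.1356. The cause of these changes was not tested.

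Counts over all genes moved too. DESeq2 called 29 higher and 3 lower in ieWAT, 98 and 175 in isWAT, 37 and 15 in sWAT and 261 and 530 in BAT, where limma called 0, 1, 3 and 1 genes in all. Without BAT control 2, 142 were higher and 2059 lower; without sWAT knockout 1, 111 and 9, and without sWAT knockout 2, 25 and 53. In eWAT, 457 and 87 were called with no filter, 436 and 125 without control 2, 853 and 286 without control 3, 815 and 297 and 709 and 198 without labelled knockouts 1 and 2, 7 and 5 without labelled knockout 3, and 0 and 1 in the TPM table. The replicate numbers were not shown to pair the libraries, since same-numbered libraries had correlations of deviations of 0.109, 0.136 and -0.391 in ieWAT, and -0.243, -0.317 and 0.0634 in eWAT. With the replicate block, ieWAT and sWAT each had 1 gene called, isWAT had 2 higher and 5 lower, and BAT and eWAT had 0. Depth limits Gdf15 in sWAT, at 7 to 20 reads per library. The TPM table, the likeness without BAT and the settings for pathway genes were chosen after seeing the data.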
